A study of Homo sapiens with 2 samples.

Results

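A375 melanoma cells that still carried cell division transcripts after 15 days with cytotoxic T lymphocytes (CTLs) numbered 2384. They were chosen by a rule on the data: a barcode of the CTL persister library with at least 5000 UMIs, at most 20% mitochondrially encoded UMIs, fewer than 3 of 6 T cell genes detected, and at least 10 UMIs of 14 division markers per 10000 UMIs of the cell. A UMI is a distinct RNA molecule. They made up 40.4% (95% exact binomial interval 39.2 to 41.7%) of the 5897 persister cells that passed the other filters, and belong to 17895 barcodes in the whole series. They were set beside the 8442 of 9094 parental cells (92.8%, 92.3 to 93.4%) that met the same marker rule, so that both sides were cycling. The marker values chose the members, and the markers are therefore described here and not tested.

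The CTL persister sample is A375, an established human melanoma line, left alive after coculture with CTLs against NY-ESO-1, a cancer-testis antigen. The coculture medium held 7.5 ng/mL interleukin 2, and CTLs were renewed every 3 days. The parental sample is A375 that was not treated, and whether it received interleukin 2 is not given. Both were detached with trypsin and made into 10x Chromium 3' v3 libraries, 1 library per condition, so no difference below has a replicate check, and intervals cover counting error only.

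Cells that divide pass through S phase, when DNA is copied, and then through G2 and mitosis. Transcription of replication genes is driven by E2F factors at the start of this course, and transcription of the mitotic genes follows later, under B-MYB (encoded by MYBL2) and FOXM1 with the MuvB complex. CDK inhibitors such as p21 (CDKN1A) oppose entry and progress. Interferon-gamma, the main cytokine of CTLs, acts in part through IRF1 to raise antigen presentation and is known to slow the growth of many tumour cells.

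The promoters of 6 genes are shown here because the results below turn on these genes. Each is the 200 bases before the start in RefSeq on GRCh38.p14. CDC20 is a mitotic marker of the rule that was more than 2-fold lower in cycling persister cells, and PLK1 is one that was lower by less than 2-fold. TOP2A is a marker at a similar level in both. E2F1 stands for the replication side, and IRF1 and GBP1 stand for the interferon side. The stretches are chr1:43358781-43358980 (CDC20, plus strand), chr16:23678689-23678888 (PLK1, plus strand), chr17:40417897-40418096 (TOP2A, minus strand), chr20:33686386-33686585 (E2F1, minus strand), chr5:132490774-132490973 (IRF1, minus strand) and chr1:89065209-89065408 (GBP1, minus strand). Capitals mark every match, on either strand, to the CHR element of late cell cycle genes (TTTGAA or TTCGAA), the CCAAT box, the E2F site (TTTCGCGC or TTTGGCGC), the gamma-activated sequence GAS (TTCNNNGAA) or the interferon-stimulated response element ISRE (GAAA, any 2 bases, GAAA).
CDC20: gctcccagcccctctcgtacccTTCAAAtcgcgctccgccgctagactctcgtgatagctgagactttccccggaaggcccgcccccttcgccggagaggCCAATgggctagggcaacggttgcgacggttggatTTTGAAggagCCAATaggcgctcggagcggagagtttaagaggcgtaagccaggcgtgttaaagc
PLK1: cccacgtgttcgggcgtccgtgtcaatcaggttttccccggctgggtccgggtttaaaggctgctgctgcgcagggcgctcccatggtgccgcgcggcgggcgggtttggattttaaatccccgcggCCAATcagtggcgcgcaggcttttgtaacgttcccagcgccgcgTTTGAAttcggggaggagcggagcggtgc
TOP2A: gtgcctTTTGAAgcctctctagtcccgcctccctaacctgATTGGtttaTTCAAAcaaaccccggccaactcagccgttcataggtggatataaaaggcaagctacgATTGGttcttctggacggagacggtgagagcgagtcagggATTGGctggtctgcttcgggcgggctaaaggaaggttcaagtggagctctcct
E2F1: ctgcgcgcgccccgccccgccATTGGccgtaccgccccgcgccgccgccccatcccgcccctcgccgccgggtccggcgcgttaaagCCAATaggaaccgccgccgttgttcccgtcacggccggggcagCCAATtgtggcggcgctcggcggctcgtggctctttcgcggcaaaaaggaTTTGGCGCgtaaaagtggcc
IRF1: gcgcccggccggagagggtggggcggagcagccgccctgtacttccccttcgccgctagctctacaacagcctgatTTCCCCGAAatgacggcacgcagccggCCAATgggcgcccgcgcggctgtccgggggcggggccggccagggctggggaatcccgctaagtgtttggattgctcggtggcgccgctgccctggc
GBP1: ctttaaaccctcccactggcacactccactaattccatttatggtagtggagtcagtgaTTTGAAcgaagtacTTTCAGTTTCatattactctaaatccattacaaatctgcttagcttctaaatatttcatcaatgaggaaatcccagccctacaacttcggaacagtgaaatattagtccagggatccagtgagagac
In windows that run from 250 bases before to 50 bases after the start, the CHR letters were found in 9 of 11 windows (81.8%) of the 10 rule markers that had one, against 16.4% of all 35116 windows. The CCAAT box was in 11 of 11, against 34.6% of all. It was also in 29 of 43 windows (67.4%) of the S phase list and 31 of 51 (60.8%) of the G2 and M list, so it did not set these lists apart. Among the promoters shown, that of IRF1 also holds a CCAAT box and that of GBP1 a CHR match. The S phase list held the E2F letters in 12 of 43 windows (27.9%), against 1.15% of all, and the CHR letters in 5 of 43 (11.6%). The rule markers held the E2F letters in 3 of 11 windows (27.3%), but CDK1 has overlapping windows that share the same match. By gene this was 2 of 10 rule markers, against 12 of 32 genes of the S phase list. The G2 and M list held the E2F letters in 0 of 51 windows. The interferon-gamma list held the ISRE letters in 16 of 29 windows (55.2%), against 3.57% of all, and the GAS letters in 7 of 29 (24.1%), against 7.66%. A match is a description of the letters and not a binding site, and E2F and CCAAT matches can lie in 1 window.

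The marker level had a different shape in the libraries. In the persister library 801 of 5897 cells (13.6%) had no marker UMI at all, against 57 of 9094 parental cells (0.627%). Among cycling cells, the marker level had a median of 24.8 per 10000 UMIs in persister cells and 35.4 in parental cells. The upper end ran the other way: 5.66% of cycling persister cells (4.77 to 6.67%) reached 100 per 10000, against 1.36% of cycling parental cells (1.13 to 1.63%). Just inside the threshold, between 10 and 11 per 10000, lay 83 persister and 89 parental cells, and just outside it, between 9 and 10, lay 73 and 87. At a fixed depth of 5000 UMIs, a median of 7 of 14 markers was detected per cycling persister cell, 9 per cycling parental cell, 1 per non-cycling persister cell and 2 per non-cycling parental cell.

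**Figure D1:**
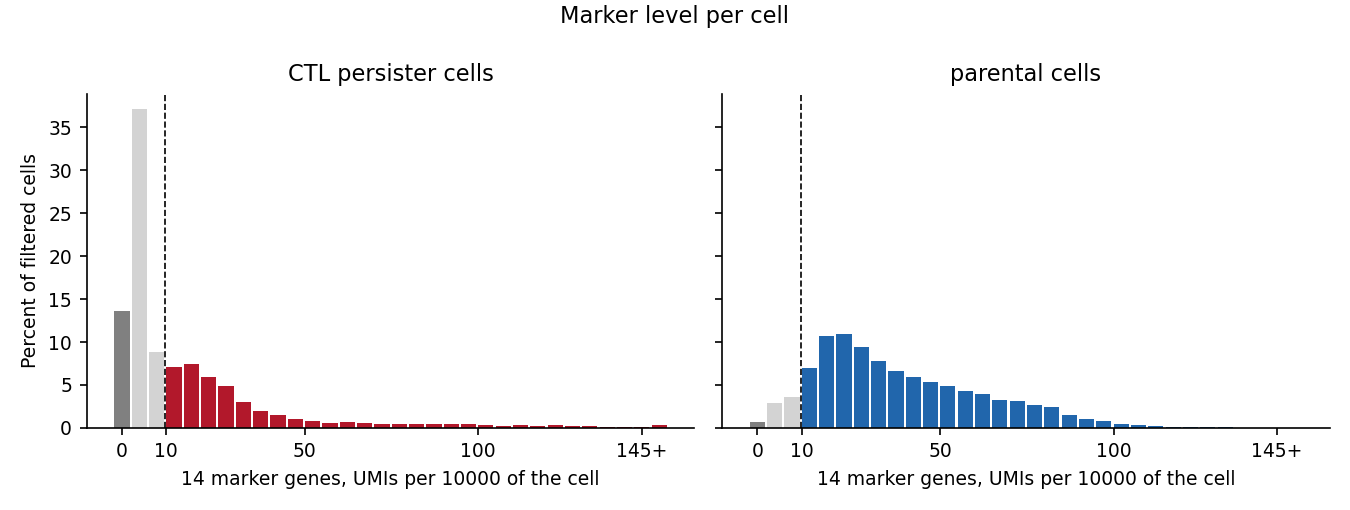
Share of filtered cells (percent, vertical) by the level of the 14 markers (UMIs per 10000 UMIs of the cell, horizontal) in the CTL persister library (left) and the parental library (right). Dark grey is cells with no marker UMI, light grey is cells under the threshold of 10 (dashed line), and colour is cycling cells. Cells with no marker UMI make up 13.6% on the left and 0.627% on the right, and cycling cells 40.4% and 92.8%.

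Defining markers of the cell types that the coculture could hold were checked first. The T cell list of 13 genes summed to 10.4 CPM (UMIs of a gene per 1000000 UMIs) in cycling persister cells, against 3.92 CPM in cycling parental cells, and 2150 CPM in the 45 persister barcodes that the T cell limit left out. TRAC (200 UMIs) and TRBC2 (126 UMIs) gave most of it in cycling persister cells, with 212 and 72 UMIs in cycling parental cells, CD8B was at 0, and the cytotoxic list gave 5.43 CPM against 0.361 CPM, with GZMK at 0. Scaled to those 45 barcodes, this level corresponds to 0.482% of the UMIs of cycling persister cells and 0.182% of those of cycling parental cells. The 45 barcodes held 4174 CPM of the rule markers themselves, so that 0.482% of such RNA carries 20.1 CPM of the 3714 CPM of markers. At 5000 UMIs, 3.02% of cycling persister cells had a UMI of 1 of the 6 T cell genes, against 1.39% of cycling parental cells; before thinning these were 8.68% and 2.64%. The part of this RNA in the results below was not tested. The melanoma markers MIA, S100A1 and SOX10 were at 981, 53.9 and 179.8 CPM, against 166, 48.6 and 97.6 CPM. Others were lower in cycling persister cells, with SERPINE2 at 1017 against 1733 CPM, PRAME at 21.1 against 42.9 CPM and MITF at 7.84 against 13.6 CPM. Of 13 measured members of the list 3 were higher and 1 lower by 2-fold, with a median of 0.15. Of all measured genes 9.01% were higher and 8.26% lower. The pigment genes MLANA, with 1 UMI against 0, and TYR, at 0 in both, were at or under the floor of 3 UMIs. Fibroblast markers summed to 1.48 against 3.84 CPM.

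Cycling persister cells were deeper, with a median of 14418 UMIs and 7.10% mitochondrial UMIs, against 8315.5 UMIs and 5.86% in cycling parental cells. The sums compared held 36457703 UMIs of cycling persister, 77516099 of cycling parental, 41184857 of non-cycling persister (3513 cells) and 4881034 of non-cycling parental cells (652 cells). Non-cycling means only under the marker threshold, and such cells can be in S phase. More S phase than G2 and M UMIs were held by 29.1% of non-cycling and 15.1% of cycling parental cells. In persister cells these shares were 17.8% and 12.8%. At equal depth, the 75th percentile of S phase UMIs in non-cycling parental cells was 19, against a cycling parental median of 18. In persister cells these were 7 and 11. Of 38 barcodes found in both libraries, 4 were cycling in both. In all comparisons a gene was measured at 5 CPM or more in 1 of the sums, differences are log2 of (CPM + 1), so changes of low genes come out too small, and higher or lower means 2-fold or more.

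Most mitotic genes differed by less than 2-fold between cycling persister and cycling parental cells. The rule partly fixes this, since both groups were selected for mitotic markers. Among non-cycling cells the G2 and M list had 22 of 42 lower in persister than in parental cells, with a median of -1.14. Of all genes measured there, 9.31% were lower. The same rule defines the non-cycling cells and partly fixes that value too, so it is no check on the selection. Of the 9836 measured genes, 886 (9.01%) were higher and 812 (8.26%) lower in cycling persister cells, with a median log2 difference of -0.14 over all of them. Among the 44 genes of the G2 and M list that are not rule markers, 0 were higher and 4 lower (CDCA3, PSRC1, LBR and PIMREG, the last named after its value was seen), with a median of -0.27. The spindle checkpoint and kinetochore list, whose products hold anaphase back until chromosomes attach, had 0 higher and 1 lower (MAD2L1) of 22, with a median of -0.18. Condensin and cohesin genes had 0 and 0 of 19, with a median of -0.07, and cytokinesis and spindle motor genes 1 and 0 of 21, with a median of 0.00. The medians of those last 2 lists took either sign under other settings, from -0.13 to 0.03 and from -0.14 to 0.19.

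CIT, the citron kinase of the midbody in cytokinesis, was the exception of that list. Citron kinase RNA was at 97.5 CPM (94.3 to 100.7) in cycling persister cells, against 28.1 CPM (26.9 to 29.3) in cycling parental cells, a ratio of 3.47. It was 26.1 CPM in non-cycling persister cells and 8.40 CPM in non-cycling parental cells, so persister cells of either kind stood above parental cells of the same kind. KIF2C, a kinesin that takes microtubules apart at kinetochores, was at 128.5 CPM (124.9 to 132.2), against 94.3 CPM (92.1 to 96.5), which is under 2-fold, and in non-cycling cells the order was the other way, at 7.45 against 18.0 CPM.

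Within the 14 rule markers, levels differed in size from gene to gene. The markers summed to 3714 CPM in cycling persister cells and 4262 CPM in cycling parental cells. CENPF, a kinetochore protein, was at 669 CPM (661 to 677) against 635 CPM (629 to 640), and TOP2A, the topoisomerase that untangles chromosomes, at 523 against 572 CPM. MKI67, the Ki-67 gene, was at 279 against 329 CPM. All 3 lay under 2-fold between the libraries.

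CDC20 and KIF20A stood apart among the markers. CDC20, the activator of the anaphase-promoting complex (chromosome 1, 43358955 to 43363203, plus strand), was at 72.8 CPM (70.1 to 75.6) in cycling persister cells, against 194 CPM (190.9 to 197.1) in cycling parental cells, a log2 difference of -1.40. KIF20A, a kinesin of the central spindle, was at 16.3 CPM (15.0 to 17.6) against 39.1 CPM (37.7 to 40.5), a log2 difference of -1.22. PLK1, the polo-like kinase of mitotic entry, was at 68.4 CPM (65.7 to 71.1) against 114.0 CPM (111.7 to 116.4), and CDK1, the kinase that starts mitosis, at 96.3 against 142.3 CPM, both under 2-fold. CDC20 took 1.96% of the marker UMIs of cycling persister cells and 4.55% of those of cycling parental cells.

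CDC20 and PLK1 are among the genes that set the marker level, so their values at steps of that level are a description. Cells were split at 15, 20, 30 and 50 marker UMIs per 10000. Going up these 5 steps, CDC20 was at 22.1, 33.7, 38.3, 71.9 and 189.8 CPM in cycling persister cells, against 91.0, 118.4, 151.8, 186.7 and 268.6 CPM in cycling parental cells. It was lower in persister cells at every step. PLK1 crossed over: it was at 11.5, 15.9, 25.1, 65.7 and 213.9 CPM, against 28.5, 36.5, 57.1, 108.7 and 193.3 CPM, lower at the first 4 steps and higher at the top one. AURKA, the Aurora A kinase of the spindle poles, was at 30.1 CPM against 28.9 CPM at the lowest step and 471.7 against 364.0 CPM at the top. The top step has no upper limit, and more cycling persister than parental cells reached 100 per 10000 (5.66% against 1.36%). The PLK1 and AURKA values there are therefore not at like marker levels, and no gain of these genes is read from them. Parental cells were also weighted so that their shares in the 5 steps equalled those of persister cells. The log2 difference was then -1.20 for CDC20, which itself enters the weights, as does KIF20A at -0.90. It was -0.79 for CDCA3, -0.75 for PSRC1 and -0.87 for CCNF, which do not, all under 2-fold. Marker levels within a step were not matched. The rule markers still summed to 3714 CPM in cycling persister cells, against 3418 CPM in weighted parental cells.

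S phase genes were lower by more than the mitotic ones, though selection of both groups on mitotic markers partly fixes that contrast. In non-cycling cells the persister over parental medians were close, at -1.13 for the S phase list and -1.14 for the G2 and M list. The same rule defines those cells. Their median marker level was 1.56 per 10000 in persister and 5.05 in parental cells. The rule thus partly fixes these medians too, and they are no check on the selection. Of 42 measured S phase genes, 0 were higher and 13 lower in cycling persister cells, against 9.01% and 8.26% of all measured genes. The S phase genes had a median log2 difference of -0.62, against -0.14 over all measured genes. Their sum was 2459 CPM (2443 to 2476) in cycling persister cells and 3538 CPM (3525 to 3551) in cycling parental cells. PCNA, the sliding clamp of DNA polymerase, was at 41.2 CPM (39.1 to 43.3) against 138.6 CPM (136.0 to 141.3). UNG, which removes uracil from DNA, was at 10.5 against 41.1 CPM, and CDCA7 at 7.95 against 29.2 CPM. MCM2, a subunit of the replicative helicase, was at 20.8 against 40.5 CPM, just under 2-fold. RRM2, a subunit of ribonucleotide reductase, was at 112.8 against 146.3 CPM, and RAD51AP1, a recombination protein, at 71.5 against 56.1 CPM, so the list did not shift as 1 block.

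Per cell the same held at equal depth. Thinned to 5000 UMIs, a cycling persister cell had a median of 11 S phase UMIs (5th to 95th percentile 3 to 27) and a cycling parental cell 18 (9 to 30). At or under the parental 5th percentile lay 40.5% of cycling persister cells. For the G2 and M list without rule markers the medians were 25 and 31, and 17.4% lay at or under the parental 5th percentile.

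The S phase level also took another course as marker levels went up. From the lowest to the highest of the 5 steps, the S phase list was at 2445, 2812, 2964, 2483 and 1538 CPM in cycling persister cells, against 4170.5, 4201, 3972, 3439 and 3037 CPM in cycling parental cells. The G2 and M list was at 3576, 4075, 4874, 6022 and 9924 CPM, against 4275, 4730.4, 5132, 6466 and 8807 CPM. Persister cells were thus lower in S phase RNA at every step and higher in G2 and M RNA at the top step alone. The top step has no upper limit, and a larger share of cycling persister than of cycling parental cells had very high marker levels. Neither list is therefore compared at like marker levels in that step, and no gain of G2 and M RNA is read from it. Cells with more S phase than G2 and M UMIs made up 20.1% (16.4 to 24.3%) of persister cells at the lowest step, against 43.5% (39.6 to 47.5%) of parental cells, and 12.8% (11.5 to 14.2%) against 15.1% (14.3 to 15.8%) over all cycling cells.

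**Figure D2:**
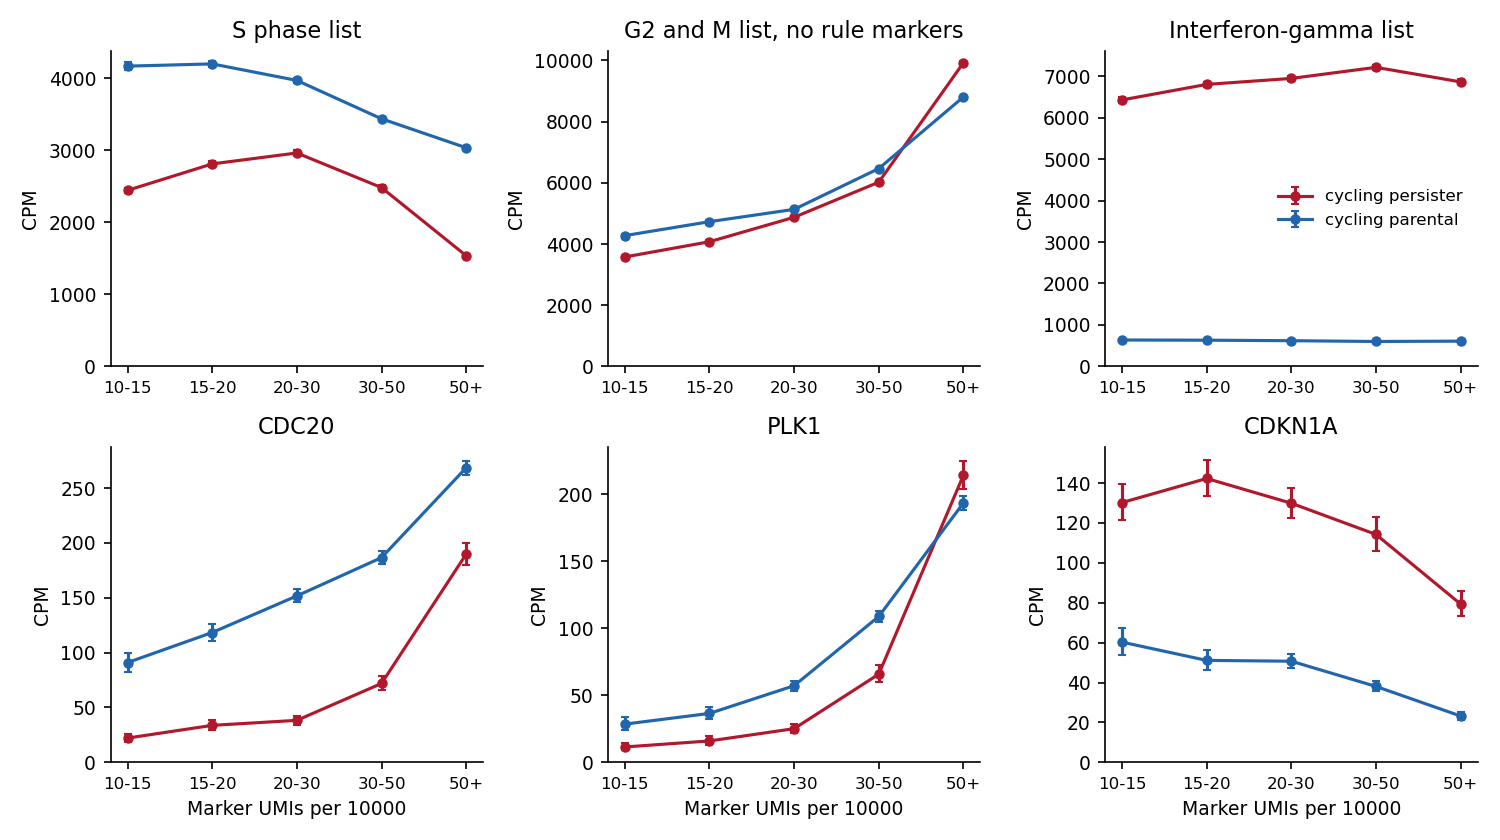
Level in CPM (vertical) of 3 gene lists and 3 genes at 5 steps of the marker level (UMIs per 10000 UMIs of the cell, horizontal) in cycling persister (red) and cycling parental cells (blue). Points are sums over the cells of a step and bars are 95% exact Poisson intervals. CDC20 and S phase RNA are lower in persister cells at every step. PLK1 is higher in persister cells at the top step alone, at 213.9 against 193.3 CPM. That step has no upper limit, so marker levels within it are not equal. The interferon-gamma list stays between 6429 and 7215 CPM in red.

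Regulators upstream of S phase were mixed. In the list of E2F, MYB and FOXM1 regulators, 1 of 16 was higher and 4 were lower, with a median of -0.66. SKP2, the ubiquitin ligase subunit that marks p27 for breakdown, was at 5.98 CPM (5.21 to 6.83) in cycling persister cells, against 38.4 CPM (37.0 to 39.8) in cycling parental cells, 6.42-fold lower. MYBL2 was at 67.4 CPM (64.8 to 70.1) against 179.2 CPM (176.2 to 182.2), and E2F1, whose promoter is shown above, at 9.22 CPM (8.26 to 10.3) against 22.3 CPM (21.2 to 23.4). FOXM1 was at 54.8 against 79.3 CPM, under 2-fold. E2F7, a repressor of the E2F family, was the member that was higher, at 85.3 CPM (82.3 to 88.4) against 29.5 CPM (28.3 to 30.8). In non-cycling cells E2F7 was at 32.2 CPM in persister and 21.1 CPM in parental cells.

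Among cyclins and CDKs, 0 of 16 were higher and 2 were lower, with a median of -0.35. The share lower is near the 8.26% of all measured genes and is no result about these genes as a group. These were CCNE2, a cyclin of the G1 to S step, at 14.4 CPM (13.2 to 15.7) against 37.2 CPM (35.8 to 38.6), and CCNF, the cyclin F ubiquitin ligase subunit, at 21.5 against 50.9 CPM. CCND1, the cyclin D1 gene that growth signals turn on, was at 1161 CPM (1150.3 to 1172) against 597.4 CPM (592.0 to 602.9), a log2 difference of 0.96, and passed 2-fold with trimmed mean (TMM) scaling, at 1.07.

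CDK inhibitors and quiescence genes had 5 of 19 higher and 1 lower, with a median of 0.24. Of all measured genes 9.01% were higher and 8.26% lower. BTG1, an antiproliferative factor, was at 771.7 CPM (762.8 to 780.8) in cycling persister cells, against 98.5 CPM (96.3 to 100.7) in cycling parental cells. CDKN1A was at 118.7 CPM (115.2 to 122.3) against 38.4 CPM (37.1 to 39.8). HES1, a repressor in the Notch pathway, was at 101.2 CPM in cycling persister cells, a log2 difference of 2.28. KLF4 and TXNIP, the other members that were higher, and CDKN2C (p18), which was lower at 14.3 against 40.2 CPM, are named after their values were seen. CDKN1B (p27) was at 27.1 CPM against 23.9 CPM. Per cell, a median cycling persister cell had 6 UMIs of the whole list per 5000, against 2 in a cycling parental cell. Above the parental 95th percentile were 58.7% of cycling persister cells. BTG1 alone, which is not a CDK inhibitor, held 771.7 of the list's 1321 CPM in cycling persister cells and 98.5 of 454 CPM in cycling parental cells. The per-cell counts thus rest largely on BTG1, and 13 of 19 members were under 2-fold.

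CDKN1A went down as markers went up in both libraries. It was at 130.2, 142.3, 129.9, 114.2 and 79.3 CPM over the 5 steps in cycling persister cells, against 60.3, 51.1, 50.7, 38.0 and 23.2 CPM in cycling parental cells. The persister level was higher at each step.

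**Figure D3:**
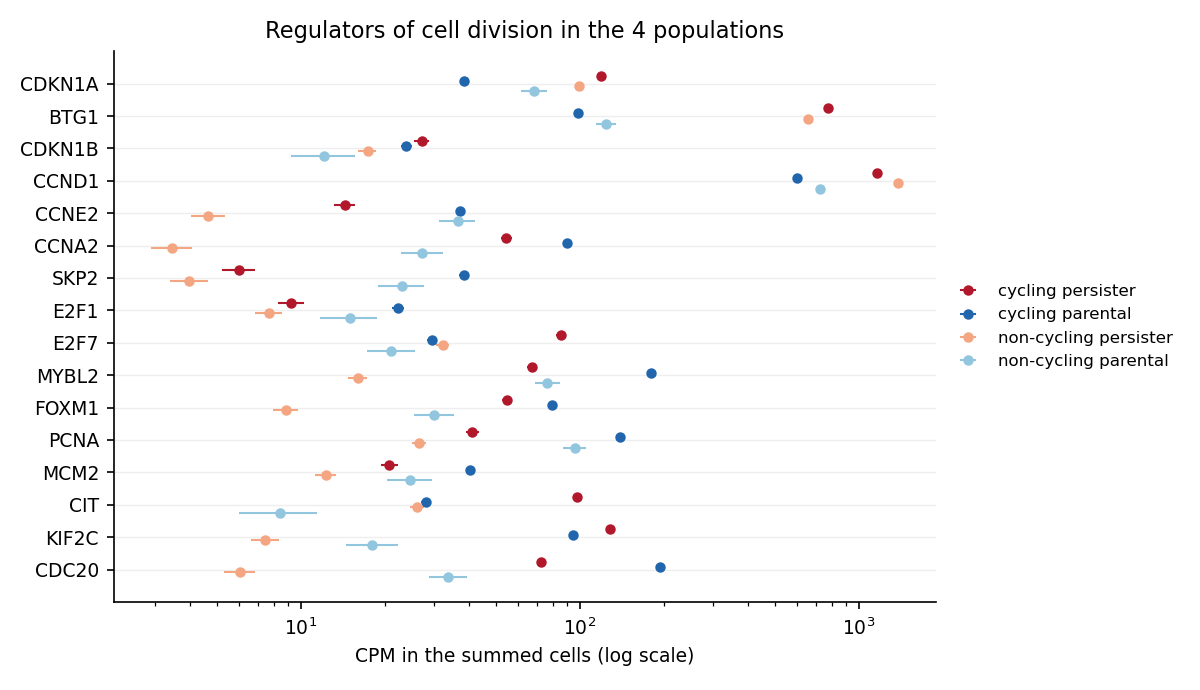
CPM on a log scale (horizontal) of 16 regulators of cell division in the summed cells of the 4 populations, with 95% exact Poisson intervals as bars. In cycling cells SKP2 is at 5.98 CPM in persister and 38.4 CPM in parental cells, and BTG1 at 771.7 and 98.5 CPM.

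Other lists tied to growth and damage were mixed, read against 9.01% higher and 8.26% lower over all measured genes. Nucleotide synthesis had 1 of 22 higher and 6 lower, with a median of -0.70, with IMPDH1 (guanine nucleotide synthesis) at 10.1 against 33.4 CPM. Ribosome biogenesis and MYC targets had 0 of 28 higher and 5 lower, with a median of -0.58; SRM, spermidine synthase, was at 213.8 against 605.5 CPM. DNA damage checkpoint and repair genes had 0 and 0 of 25, with a median of -0.35, and p53 targets 9 higher and 4 lower of 27, with a median of 0.05. Among the p53 targets were GADD45A (424.2 against 46.1 CPM) and SESN2 (96.5 against 6.06 CPM), which the integrated stress response also turns on. Replication-dependent histones, many of whose RNAs lack the poly(A) tail that this assay captures and which share sequence, had 2 higher and 2 lower of 14.

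Interferon-response RNA was high in cycling persister cells. In the interferon-gamma list 32 of 33 measured genes were higher and 0 lower, against 9.01% and 8.26% of all measured genes. The list's median log2 difference was 3.1. It summed to 6862 CPM (6835 to 6889) in cycling persister cells and 612.7 CPM (607.2 to 618.2) in cycling parental cells. IRF1 was at 945 CPM (935 to 955) against 16.3 CPM (15.4 to 17.2), and GBP1, a guanylate-binding GTPase, at 150.7 CPM (146.7 to 154.7) against 2.33 CPM (2.01 to 2.70). CXCL10, a chemokine for T cells, had 2398 UMIs against 1. Type I interferon genes were higher in 29 of 36 and lower in 0 cases, MHC class I presentation genes in 17 and 1 of 20 (CALR, a chaperone, was the lower one and is named after its value was seen), and MHC class II presentation genes in 12 and 0 of 13. B2M, the class I light chain, was at 6548 CPM (6522 to 6575) against 672.3 CPM (666.5 to 678.1), and HLA-B, whose counts depend on how reads shared among HLA genes were treated, at 3172 against 108.8 CPM.

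The difference was also seen cell by cell. At 5000 UMIs, a cycling persister cell had a median of 34 interferon-gamma UMIs (19 to 53), and a cycling parental cell 3 (0 to 6). All 2384 cycling persister cells were above the parental 95th percentile, while not 1 of the 8442 parental cells (0) came up to the persister cells' median. For MHC class I, 2383 of 2384 were above that percentile.

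Within the persister library, the interferon lists were close between cycling and non-cycling cells. Against non-cycling persister cells, 323 of 9523 measured genes (3.39%) were higher and 48 (0.504%) lower in cycling persister cells, with a median of 0.00. None of the 33 interferon-gamma genes was higher or lower (0 and 0), with a median of -0.12, and their sum was 6862 CPM against 7247 CPM. None of the 20 MHC class I genes differed by 2-fold either (0 and 0), and their sum was 13583 against 14932 CPM. Type I genes had 0 and 0 of 39, with a median of -0.35 and a sum of 2855 against 3673 CPM. Over the 5 marker steps the interferon-gamma list was at 6429, 6803, 6948, 7215 and 6864 CPM in cycling persister cells and between 600.6 and 636.6 CPM in cycling parental cells.

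**Figure D4:**
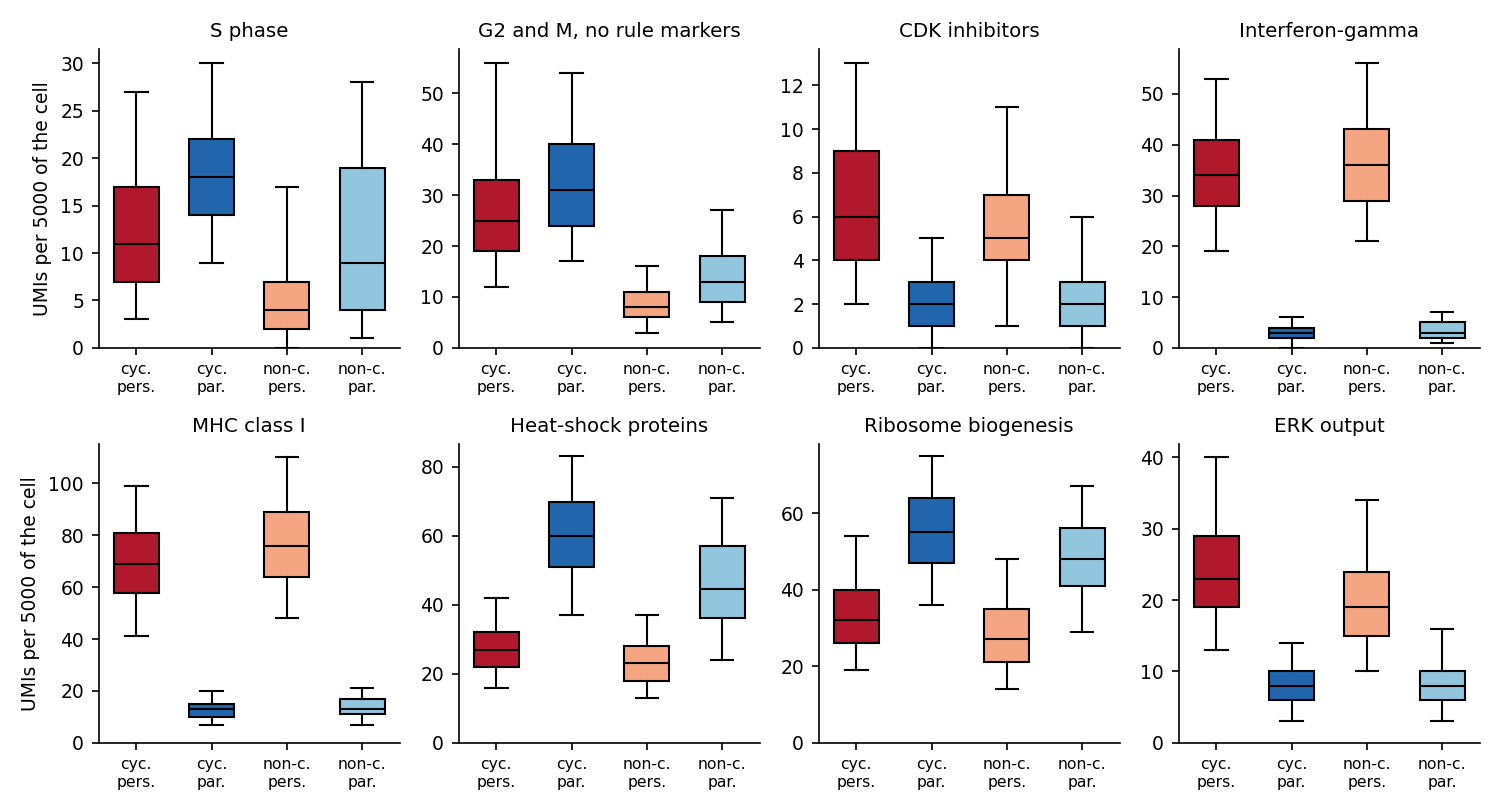
UMIs of 8 gene lists per cell, each cell thinned to 5000 UMIs, in cycling persister (cyc. pers.), cycling parental (cyc. par.), non-cycling persister (non-c. pers.) and non-cycling parental cells (non-c. par.). Boxes run from the 25th to the 75th percentile with the median as a line, and whiskers run from the 5th to the 95th. Interferon-gamma medians are 34, 3, 36 and 3, and S phase medians are 11, 18, 4 and 9. The CDK inhibitor panel is the whole list of CDK inhibitors and quiescence genes, of which BTG1 is a large part.

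What set cycling apart from non-cycling persister cells was the division program, which the rule partly fixes. The G2 and M list was higher in 38 of 44 cases and the S phase list in 22 of 41, with medians of 2.83 and 1.07. Of all measured genes 3.39% were higher. By size the leading genes were GTSE1 (78.9 against 3.74 CPM), a regulator of p53 and microtubules in G2, and HJURP (66.0 against 3.08 CPM), the chaperone of centromeric histone. PCNA was at 41.2 against 26.5 CPM and MCM2 at 20.8 against 12.3 CPM, neither reaching 2-fold. CDKN1A was at 118.7 against 99.6 CPM, and BTG1 at 771.7 against 654.0 CPM, so neither gene was lower in the summed cycling cells. At the top marker step CDKN1A was at 79.3 CPM (73.2 to 85.9), under the non-cycling level, and BTG1 at 839.6 CPM, above it. At the lower steps CDKN1A was at 114.2 to 142.3 CPM.

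Genes that were lower in cycling than in non-cycling persister cells were few. LCE1E, a late cornified envelope gene of skin, was at 24.3 CPM (22.7 to 26.0) in cycling and 149.2 CPM (145.5 to 153.0) in non-cycling persister cells, and had 1 UMI in cycling parental cells. Over the marker steps it was at 38.4, 36.1, 22.0, 18.4 and 10.5 CPM. S100B, a glial and melanocytic calcium-binding protein, was at 33.5 against 89.3 CPM, PTPRZ1, a receptor phosphatase of glia, at 37.1 against 93.4 CPM, and PLAT, tissue plasminogen activator, at 38.0 against 93.7 CPM. MXD4, an antagonist of MYC, was at 8.91 against 20.5 CPM.

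**Figure D5:**
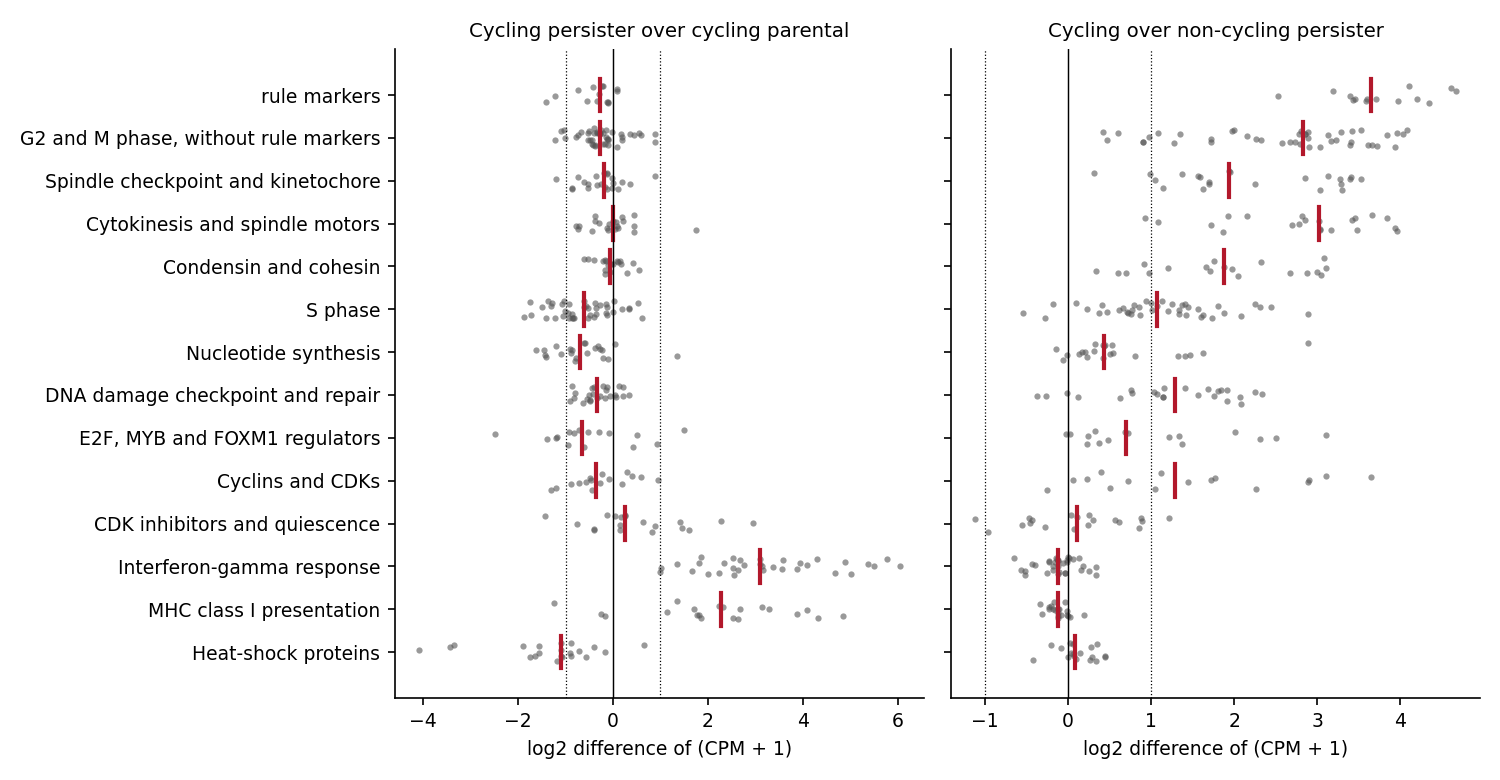
Log2 difference of (CPM + 1) of each measured member of 14 gene lists (points, horizontal axis), with the list's median as a red bar, for cycling persister over cycling parental cells (left) and cycling over non-cycling persister cells (right). Dotted lines mark 2-fold. On the left the G2 and M list has a median of -0.27, the S phase list -0.62 and the interferon-gamma list 3.1, and on the right 2.83, 1.07 and -0.12.

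Stress and growth signals in cycling persister cells differed from cycling parental cells too. ERK output and immediate-early genes, the transcripts downstream of BRAF and MEK, were higher in 14 of 25 and lower in 0 cases, with a median of 1.36. Of all measured genes 9.01% were higher and 8.26% lower. AREG, an EGF receptor ligand, was at 336.7 against 12.7 CPM, LIF, a cytokine of the interleukin 6 family, at 120.6 against 6.01 CPM, and EGR1, an immediate-early factor, at 86.7 CPM (83.7 to 89.7) against 1.78 CPM. The list of 10 dissociation and RNA quality genes, which shares EGR1 and ATF3, summed to 16517 against 10016 CPM with 4 higher and 3 lower, and its part in these values was not tested. Integrated stress and unfolded protein genes were higher in 20 and lower in 1 of 28, with a median of 1.71. Among them were DDIT3 (CHOP), at 427.1 against 17.2 CPM, and TRIB3, its target, at 153.4 against 17.8 CPM. Between cycling and non-cycling persister cells, 0 of 25 ERK and 0 of 28 integrated stress genes differed by 2-fold, so these levels are not particular to cycling persister cells.

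Heat-shock protein genes were higher in 0 and lower in 13 of 21 cases, against 9.01% and 8.26% of all measured genes. The list had a median of -1.10 and sums of 5455 CPM in cycling persister cells and 11768 CPM in cycling parental cells. HSPA8, the constitutive HSP70, was at 121.3 CPM (117.7 to 124.9) against 1321 CPM (1313 to 1329). Of cycling persister cells, 89.6% lay at or under the parental 5th percentile for this list. Between cycling and non-cycling persister cells, 0 of its 18 measured genes differed by 2-fold. HSPA1A, at 1.89 against 48.2 CPM, has a near-identical copy, HSPA1B, and the split between them is uncertain.

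Survival genes were higher in 7 and lower in 1 of 14 cases, against 9.01% and 8.26% of all measured genes, led by BCL2A1, a BCL2 relative, at 143.9 CPM against 0.555 CPM, and BIRC3, an inhibitor of apoptosis, at 126.7 against 0.761 CPM. Death genes were higher in 6 and lower in 0 of 19. Between cycling and non-cycling persister cells, 0 of 14 survival and 0 of 18 death genes differed by 2-fold. CD274, the PD-L1 gene, was at 23.7 CPM against 1.75 CPM.

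The persister over parental difference was also taken in non-cycling cells and compared. There, 815 of 10152 genes (8.03%) were higher and 945 (9.31%) lower. Of 10337 genes measured in any of the 4 sums, the signed log2 difference (persister over parental in cycling cells, minus the same in non-cycling cells) was 1 or more for 139 (1.34%) and -1 or less for 21 (0.203%). A positive value can thus also mean that a gene was less far below the parental level in cycling cells. The non-cycling parental sum is shallow, and the same libraries enter both sides. The interferon-gamma, MHC class I and MHC class II lists had 0 and 0 genes in this comparison, and the type I list 0 and 1 (IFI27, named after its value was seen).

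The G2 and M list had 18 of 44 and the cytokinesis list 11 of 21 members on the positive side. The marker threshold defines these groups and partly fixes those counts, so nothing is read from them: non-cycling parental cells had a median of 5.05 marker UMIs per 10000 and lay nearer the threshold, while non-cycling persister cells had a median of 1.56. CCNA2, cyclin A2, was at 54.5 CPM against 89.6 CPM in cycling cells and at 3.45 CPM against 27.2 CPM in non-cycling cells, persister before parental in each, so it was further below the parental level in non-cycling cells. EGR1 and ATF3 were also on the positive side, and EGR1 was at 86.7 against 1.78 CPM in cycling cells and at 49.1 against 14.1 CPM in non-cycling cells, so it was the parental level that differed more between the kinds of cell. CDKN1A was at 118.7 against 38.4 CPM in cycling cells and at 99.6 against 68.4 CPM in non-cycling cells. On the negative side were LCE1E and PIF1. PIF1, a DNA helicase, was further below the parental level in cycling cells, at 16.2 against 57.7 CPM in cycling cells and 9.47 against 16.2 CPM in non-cycling cells.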

How the data were processed

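Single-cell RNA was measured in 2 samples, 1 per condition. The authors deposited raw whole-number UMI counts for every gene in every barcode, as the file headers and values show. Cell Ranger 3.1.0 and GRCh38 are named in the submitters' processing notes, with the annotation release not given in the sources used. Depth was 80802724 UMIs in 7144 persister barcodes and 88214007 in 10751 parental barcodes. Counts were summed per population and scaled to CPM. Lists are described by counts and medians beside those of all measured genes. No test was run. Intervals are 95% exact Poisson or Clopper-Pearson, for counting error only. Counts of single cells were thinned to 5000 UMIs a cell. No doublet caller was run, and cells over 20000 UMIs were left out as an alternative. The members and the 36 lists were chosen with earlier results of these data known. Named genes were, at 20 CPM or more and without rule markers, mitochondrial, ribosomal protein and clone-named genes, the 10 most different each way in both cycling cell comparisons and the 6 most different each way in the difference of differences, then up to 3 per list, the rule markers and a set of regulators. Parental cells had no T cell or mitochondrial limit, and applying both to them was an alternative chosen after seeing the data, as was a lower limit of 1% mitochondrial UMIs. Positions are from GENCODE 29 (33456 of 33538 IDs matched), and promoters from RefSeq, with 10 of 14 rule markers found. The steps were tested on simulated sums. Tools were Python 3.11.15, numpy 2.4.6, scipy 1.17.1 and, for TMM factors in an alternative, edgeR 4.0.16.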

Additional observations from a re-analysis of the deposited data

Results flagged for a closer look

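The 45 persister barcodes with 3 or more of the 6 T cell genes, which no comparison uses, held 4174 CPM of the 14 rule markers. The parental library had 0 such barcodes. Their median depth was 8569 UMIs, and they held 2150 CPM of T cell markers and 4489 CPM of cytotoxic effector genes.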

How the results depend on the processing

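No paired analysis was possible because each condition has 1 library. Of 78 alternatives for main values, 70 stayed within their limits and 8 moved past them. The main values are shares and counts of genes, which have no sign that could reverse. Limits were wider for counts: 235 in place of 323 genes higher in cycling than in non-cycling persister cells stayed within them. Some alternatives could not move a value, since limits on parental cells alone leave the persister share and the comparison within the persister library as they were. The cycling share of persister cells, 40.4%, was 43.6% with at most 10% mitochondrial UMIs, 37.1% with 5000 to 20000 UMIs, 26.0% at a threshold of 20 and 49.3% at 5. The parental share, 92.8%, was 75.2% at 20 and 96.5% at 5. With a pseudocount of 0.1 CPM, 82 genes in place of 48 were lower in cycling than in non-cycling persister cells, and 272 in place of 160 had a difference between cycling and non-cycling cells. TMM scaling gave 1000 higher and 629 lower genes in place of 886 and 812, so 61.4% in place of 52.2% of calls were higher, and the median of all genes was -0.04 in place of -0.14. Of 114 named genes past 2-fold, 109 to 114 stayed past it over 12 settings, and CDCA3, KIF20A, PSRC1, CCNF and BAG3 were those that dropped under it in 1 or more. The median of the rule markers ran from -0.43 to 0.06, that of the S phase list from -0.72 to -0.51 and that of the interferon-gamma list from 3.07 to 3.59. The cause of these shifts was not tested. Depth sets a floor of 3 UMIs, which is 0.0823 CPM in cycling persister, 0.0387 CPM in cycling parental and 0.615 CPM in non-cycling parental cells.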

Other observations

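Barcodes under 5000 UMIs were outside the rule. Of these, 606 of 1201 persister barcodes (50.5%) and 1466 of 1657 parental barcodes (88.5%) reached the marker threshold.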
